A study of Drosophila melanogaster with 12 samples.

Results

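The odorant-binding protein (Obp) genes of Drosophila melanogaster were examined in whole flies kept on a normal or a lengthened light-dark cycle. A feature was taken as a member when its FlyBase symbol began with Obp and a digit, or was lush. The older names Pbprp1 to Pbprp5, Os-E and Os-F were also searched and were not the symbol of any feature. Of 14413 counted features, 52 were members. A total of 46 held a single Obp gene and 6 were merged, meaning that reads falling on several genes had been assigned to all of them together. The annotation lists 52 such genes: 46 had a feature of their own, Obp57d was counted only together with Cpr57A, Obp50b and Obp50c only together with each other, and Obp47a, Obp56b and Obp85a were not analysed here. All 52 features were detected, in that each had at least 1 count in at least 1 sample. A total of 37 had a count in every sample, and 33 reached a mean of 1 CPM (counts per 1000000) over the 12 samples.

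Odorant-binding proteins are small, soluble, secreted proteins. Many are made by the support cells of olfactory and taste hairs (sensilla) and released into the lymph that bathes the sensory dendrites, where they bind hydrophobic odorants and pheromones before these reach the receptors. Others are made outside sensilla, in glia, fat body, gut or the male reproductive tract, and some of those made by males pass to the female in seminal fluid. The members were therefore grouped as antennal, taste, seminal fluid, outside sensilla, and other.

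Chronic circadian misalignment (CCM) was produced by a 28-h cycle of 14 h light and 14 h dark, and control flies had a 24-h cycle of 12 h light and 12 h dark. Flies were sampled after 3 or 2 weeks, which gave the groups CCM week 3, control week 3, CCM week 2 and control week 2, with 3 samples each, named A, B and C. All 12 samples were whole flies of the strain iso31, an isogenic white-eyed laboratory stock, fed only sucrose and agar. Each sample pooled 10 males and 10 females, and RNA was taken in the first hours after lights-on (ZT0-3). Nothing in the labels says whether samples of a group came from separate cohorts, so the p-values measure the spread between these samples, which may in part be technical.

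The samples held 17842804 to 23687266 counts. Markers of yolk (3 genes), male accessory gland (15 genes) and photoreceptors (5 genes) were found in every sample, as the label whole fly requires. Of 20 genes of olfactory neurons, all had counts but only 6 reached a mean of 1 CPM, so the receptors themselves were near the limit of detection. Some libraries stood apart. Control week 2 B had the lowest level of 7 of the 10 antennal members among the 12 samples, and control week 2 C had the lowest level of 16 of the 36 members that were tested, among them 4 of 7 seminal fluid members. The share of all features that were lowest in these libraries is not given here, so whether the members stand out cannot be told. The summed accessory gland markers were 301 CPM in control week 2 C, against 426 CPM in A and 599.7 CPM in B of that group.

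In level, the members covered several orders of magnitude. Per kb of exon, Obp99c, a protein found mainly outside sensilla, was the highest of all, with 1291 ± 319 CPM per kb in CCM week 3, 1059.6 ± 316 in control week 3, 1059 ± 60.2 in CCM week 2 and 828 ± 254 in control week 2 (SD, n = 3 each). It was followed by the seminal fluid proteins Obp56g, at a mean of 388 CPM per kb over the 12 samples, and Obp51a, at 219 CPM per kb. Obp44a, which is made in glia of the nervous system, had 218 CPM per kb and did not differ from Obp51a beyond the spread between samples. Obp57c, at 198 CPM per kb, and the antennal Obp19d, at 161 CPM per kb, came next. Obp57a at 72.1 and the antennal Obp56d at 57.3 CPM per kb closed the 8 highest. The best-known olfactory members were lower. Obp28a, which is abundant in antennal lymph, had a mean of 30.0 CPM per kb, Obp83a and Obp83b, neighbouring genes whose products are secreted into sensilla of the antenna, had 24.4 and 22.8, and lush, which takes part in the detection of the male pheromone cVA in trichoid sensilla, had 10.6. The plot of levels per kb shows that the order was much the same in the 4 groups.

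**Figure D1:**
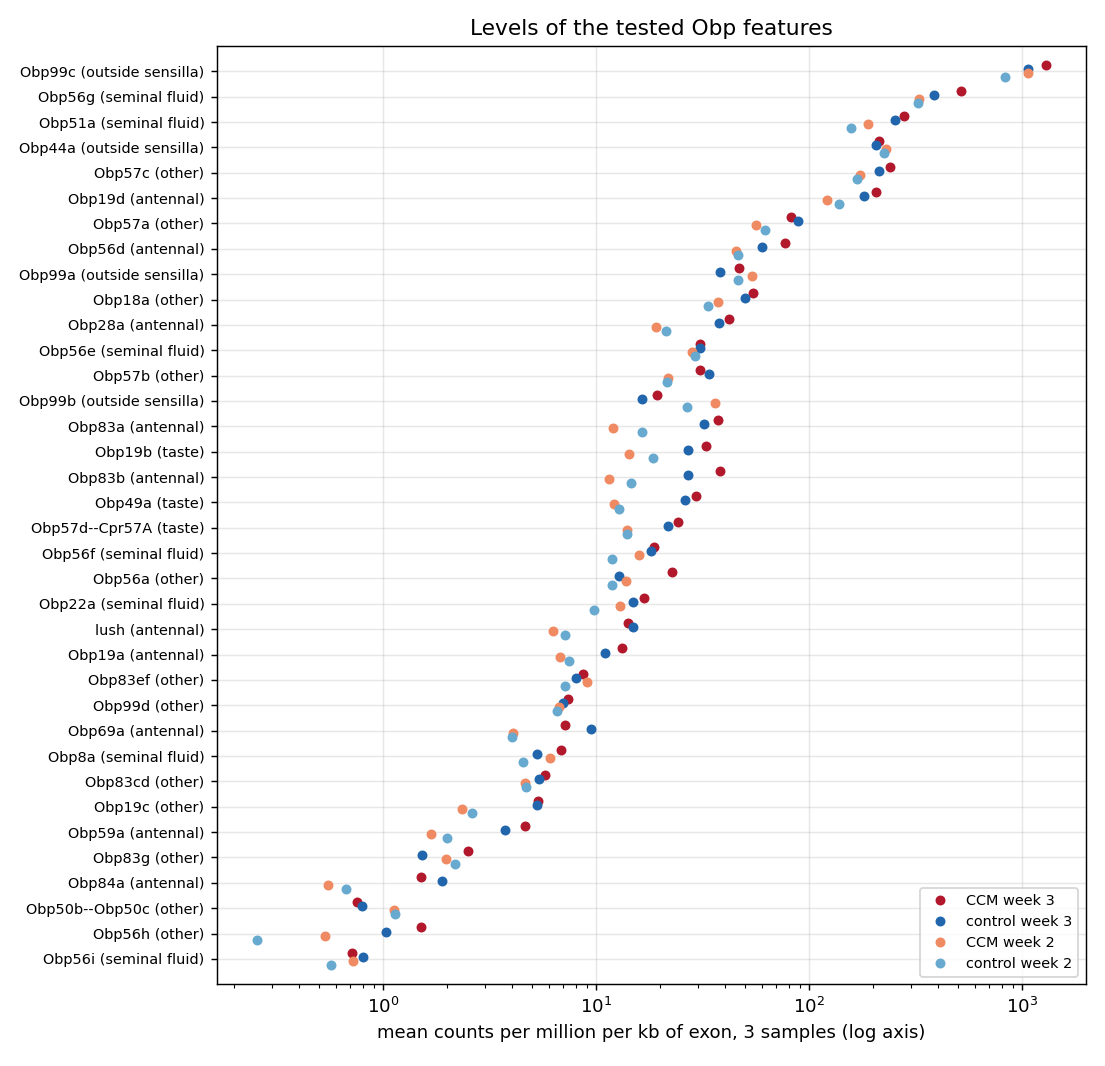
Mean level of the 36 tested members in CPM per kb of exon (horizontal log axis, 3 samples per point), in descending order, for CCM week 3, control week 3, CCM week 2 and control week 2. Obp99c lay highest in each group, Obp56i had the lowest mean over the 12 samples, and points of the antennal and taste members such as Obp83a, Obp83b and Obp49a are split by week.

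A total of 16 members were too low to test, with at most 51 counts over all 12 samples and a mean of at most 0.210 CPM. They were Obp46a, Obp47b, Obp50a, Obp50d, Obp50e, Obp56c, Obp57e, Obp58b, Obp58c, Obp58d, Obp73a, Obp93a and 4 merged features in which reads of Obp44a, Obp59a, Obp84a or Obp93a were shared with an overlapping gene. Obp57e, which with Obp57d shapes the taste response to octanoic acid, had 17 counts in all. Obp46a had 1 count. Where a library had 0 counts, up to 3 counts, or 0.184 CPM in the shallowest library, could have been missed by counting error alone.

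Many members are neighbours in the genome. On BDGP6 coordinates, Obp19a, Obp19b, Obp19c and Obp19d lie within 5236 bases of the X chromosome (20415744 to 20420979), and Obp83a and Obp83b within 4663 bases of 3R (5972155 to 5976817). The 2R arm holds 29 of the 52 genes, among them the runs Obp56a to Obp56f and Obp57a to Obp57c. The strand setting of the counting was not given in the sources used here. Obp69a overlaps CG32104, Obp84a overlaps Dtwd2, Obp59a overlaps CG30259, Obp51a lies within hbs and Obp44a overlaps Pabp2, each on the opposite strand, so part of their counts could belong to the partner. Obp57d and Cpr57A overlap on the same strand and cannot be told apart at all in the merged feature.

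The first question was whether the lengthened cycle changed Obp transcripts. At week 3, no member passed the threshold of an adjusted p of 0.1 (0 of 36 higher and 0 lower by edgeR's quasi-likelihood test, Benjamini-Hochberg adjusted). Among all 12208 features tested, 0.0% were higher and 0.0164% lower. At an unadjusted p of 0.05 there were 2 members, both higher in CCM. That threshold would let about this many of 36 tests pass without any effect. The share of all features under it is not given here, for this or the later comparisons. Obp56a, a gene of the 2R run with no role stated here, had 10.9, 13.6 and 12.7 CPM in CCM week 3, against 6.14, 10.2 and 4.54 CPM in control week 3. All its CCM samples exceeded all its control samples (log2 fold change 0.82 ± 0.35 SE, adjusted p = 0.308). Obp56d, an antennal member also made in other chemosensory organs, had 63.9, 78.4 and 71.2 CPM in CCM week 3, against 52.0, 66.2 and 48.3 CPM in control week 3, and the groups overlapped (0.35 ± 0.16, adjusted p = 0.360). Obp57c was the other tested member whose groups did not overlap, with 135, 124 and 139 CPM in CCM week 3, against 119, 112 and 122 CPM in control week 3 (0.17 ± 0.06, adjusted p = 0.501). Groups of 3 can separate without any effect. The share of all features whose groups did so is not given here, for this or the later comparisons. Of the 36 members 28 had a positive log2 fold change, with a median of 0.15, against -0.00 over all features. DESeq2 called 0 members, against 1.06% of all features higher and 2.46% lower.

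Samples with the same letter deviated together at week 3, so the letters were also fitted as pairs. With this replicate block, 4 members were higher in CCM and 0 lower, where 3.08% of all features were higher and 6.26% lower. They were Obp56g (log2 fold change 0.39, adjusted p = 0.0415), Obp56d (0.36, adjusted p = 0.0495), Obp56a (0.87, adjusted p = 0.0565) and Obp99c (0.29, adjusted p = 0.0559). For Obp99c, CCM week 3 had 821, 675 and 1095 CPM, against 642, 539 and 945 CPM in control week 3, higher in each of the 3 pairs although the groups overlapped. For Obp56g, CCM week 3 had 304, 304 and 159 CPM, against 228, 215 and 130.3 CPM in control week 3, again higher in each pair and lowest in C of either group. Obp transcripts are short: the tested members had a median of 657 exonic bases, against 1897 for all tested features. When each library was also corrected for a trend of counts with gene length, the block left 0 members called, against 2.33% of all features higher and 2.27% lower. The log2 fold change was then 0.71 in Obp56a (adjusted p = 0.113), 0.26 in Obp56d (adjusted p = 0.132), 0.22 in Obp56g (adjusted p = 0.168) and 0.15 in Obp99c (adjusted p = 0.249), each with an unadjusted p under 0.05.

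Obp56g is known to be made in the ejaculatory bulb, and its values were set beside markers of that organ. In CCM week 3 the sum of Ebp and EbpII, 2 proteins of that organ, was 1002, 875 and 479 CPM. In control week 3 it was 815, 909 and 459 CPM. Like Obp56g, the sum was lowest in the C sample of either group. In the B pair, however, Obp56g was higher in CCM and the sum was not. In whole flies, less RNA per cell and fewer cells of a type cannot be told apart, and the part of these markers in the Obp56g values was not tested.

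At week 2, 0 of 35 tested members were higher and 0 lower in CCM by edgeR's quasi-likelihood test, Benjamini-Hochberg adjusted, none had an unadjusted p under 0.05, and 0.0% of 12356 features were called in either direction. DESeq2 also called 0 members, against 0.00701% of features higher and 0.042% lower. Of the 10 antennal members, 0 had a positive log2 fold change (median -0.19), and of the 7 seminal fluid members 6 did (median 0.38), against a median of 0.02 over all features. The accessory gland markers lay the same way, with 606 to 647 CPM in CCM week 2 against 301 to 599.7 CPM in control week 2. Obp8a, a seminal fluid member, was the one tested member whose groups did not overlap at week 2. It had 3.43, 3.07 and 4.37 CPM in CCM week 2, against 3.03, 2.99 and 2.10 CPM in control week 2 (0.43 ± 0.23 SE, adjusted p = 0.712). The share of all features whose groups did not overlap is not given here. The antennal values in control week 2 were set apart by sample B. Obp83a, for example, had 14.8, 8.34 and 12.4 CPM in CCM week 2, against 20.3, 6.84 and 21.6 CPM in control week 2 (-0.45 ± 0.59, adjusted p = 0.755). Without control week 2 B its log2 fold change was -0.81 (unadjusted p = 0.0131 in edgeR's fit across all features), and 7 members, rather than 0, had an unadjusted p under 0.05, still with 0 past the adjusted threshold.

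Over both weeks, with week as a covariate, 0 of 36 members were called by edgeR's quasi-likelihood test, against 0.0559% of 12530 features higher and 0.0798% lower, and DESeq2 called 0 against 0.698% and 0.518%. Obp56h, Obp56a and Obp8a had an unadjusted p under 0.05. Without control week 2 B there were 7 such members, Obp99c, Obp99a, Obp18a and the feature of Obp57d and Cpr57A in addition, again with 0 past the adjusted threshold. Obp56h, which affects male mating behaviour, had 1.13, 0.700 and 0.837 CPM in CCM week 3, against 0.775, 0.690 and 0.368 CPM in control week 3. In CCM week 2 it had 0.235, 0.315 and 0.394 CPM, against 0.166, 0.163 and 0.124 CPM in control week 2. Its mean in CCM lay above that in controls in each week (0.71 ± 0.22 SE over both weeks, adjusted p = 0.429), on 3 to 23 counts per sample, and the groups overlapped at week 3 but not at week 2. It was too low for the 6-sample fit of week 2, and in the fit of all 12 samples its week 2 log2 fold change was 1.04 (unadjusted p = 0.0421, adjusted p = 0.571). Whether the CCM effect differed between the weeks was tested as an interaction. No member passed (0 of 36, and 0 with an unadjusted p under 0.05, by edgeR's quasi-likelihood test, Benjamini-Hochberg adjusted), with 0.0% of all features called in either direction. Without control week 2 B, 3 antennal members had an unadjusted p under 0.05, namely Obp83b (log2 difference 1.23), Obp83a (1.09) and Obp19a (0.94), each with an adjusted p = 0.824 by edgeR's quasi-likelihood test. DESeq2 called 0 members, against 0.0% of features higher and 0.00694% lower.

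The second question was how Obp transcripts differed between weeks 3 and 2 under each schedule. In CCM flies, 21 of 36 tested members were higher at week 3 and 1 was lower (edgeR's quasi-likelihood test, Benjamini-Hochberg adjusted). Among 12348 features, 26.4% were higher and 29.6% lower, so the share of members that were higher lay above that of all features and the share that were lower lay below it. Their median log2 fold change was 0.51, against -0.03 over all features. By group, 10 of 10 antennal and 3 of 3 taste members were higher, together with 7 of 12 other members, but only 1 of 7 seminal fluid members and 0 of 4 members outside sensilla. With the correction for gene length, 16 members were higher and 3 lower, against 26.1% and 23.8% of all features, and the antennal count was 9 of 10, without Obp69a. It was 8 of 10 in the fit of all 12 samples, where 28.7% of features were higher and 26.5% lower, and 6 of 10 with the length correction and the replicate block together, where 20.5% were higher and 17.6% lower, and the taste count was 3 of 3 in each. The 3 members lower with the length correction alone were Obp99b, Obp99a and Obp44a. In that fit the median of the seminal fluid members was -0.07, against 0.18 uncorrected.

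The largest changes among the antennal members were in Obp83b and Obp83a. Obp83b had 17.9, 24.0 and 18.5 CPM in CCM week 3, against 7.61, 4.68 and 5.86 CPM in CCM week 2 (log2 fold change 1.69 ± 0.24 SE, adjusted p = 0.0012). Obp83a had 32.9, 45.0 and 32.3 CPM in CCM week 3, against 14.8, 8.34 and 12.4 CPM in CCM week 2 (1.59 ± 0.29, adjusted p = 0.0016). Week 3 lay above week 2 in every sample of both neighbours.

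Obp59a, which is required for hygroreception, had 4.87, 5.51 and 3.68 CPM in CCM week 3, against 1.55, 1.30 and 2.23 CPM in CCM week 2 (1.42 ± 0.28, adjusted p = 0.00598). Obp84a, an antennal member of low level, had 0.985, 1.91 and 0.781 CPM in CCM week 3, against 0.376, 0.315 and 0.656 CPM in CCM week 2 (1.41 ± 0.49, adjusted p = 0.041). The groups were separate in both, but Obp84a rested on 8 to 41 counts per sample and its call was lost, with an adjusted p of at most 0.129, when CCM week 2 A, CCM week 2 B or CCM week 3 B was left out.

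The pheromone-binding lush had 12.4, 16.2 and 12.8 CPM in CCM week 3, against 7.66, 4.25 and 6.56 CPM in CCM week 2 (1.12 ± 0.28, adjusted p = 0.00724). Obp28a had 21.2, 28.6 and 22.8 CPM in CCM week 3, against 13.3, 8.54 and 11.1 CPM in CCM week 2 (1.09 ± 0.23, adjusted p = 0.00327). In both, every week 3 sample exceeded every week 2 sample, and sample B was the highest of week 3 and the lowest of week 2. Obp19d, the most abundant antennal member, had 211, 289.7 and 175 CPM in CCM week 3, against 153, 108 and 138 CPM in CCM week 2 (0.71 ± 0.26, adjusted p = 0.0253). Obp56d had 63.9, 78.4 and 71.2 CPM in CCM week 3, against 49.0, 38.5 and 38.3 CPM in CCM week 2 (0.71 ± 0.14, adjusted p = 0.00338). Both were separate between the weeks, as was Obp19a, with a log2 fold change of 0.92 (adjusted p = 0.0221). Obp69a had 4.09, 4.44 and 3.18 CPM in CCM week 3, against 2.87, 1.61 and 2.14 CPM in CCM week 2 (0.78 ± 0.28, adjusted p = 0.0499), and lost its call when CCM week 2 B, CCM week 2 C or CCM week 3 B was left out (adjusted p = 0.113 to 0.145).

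**Figure D2:**
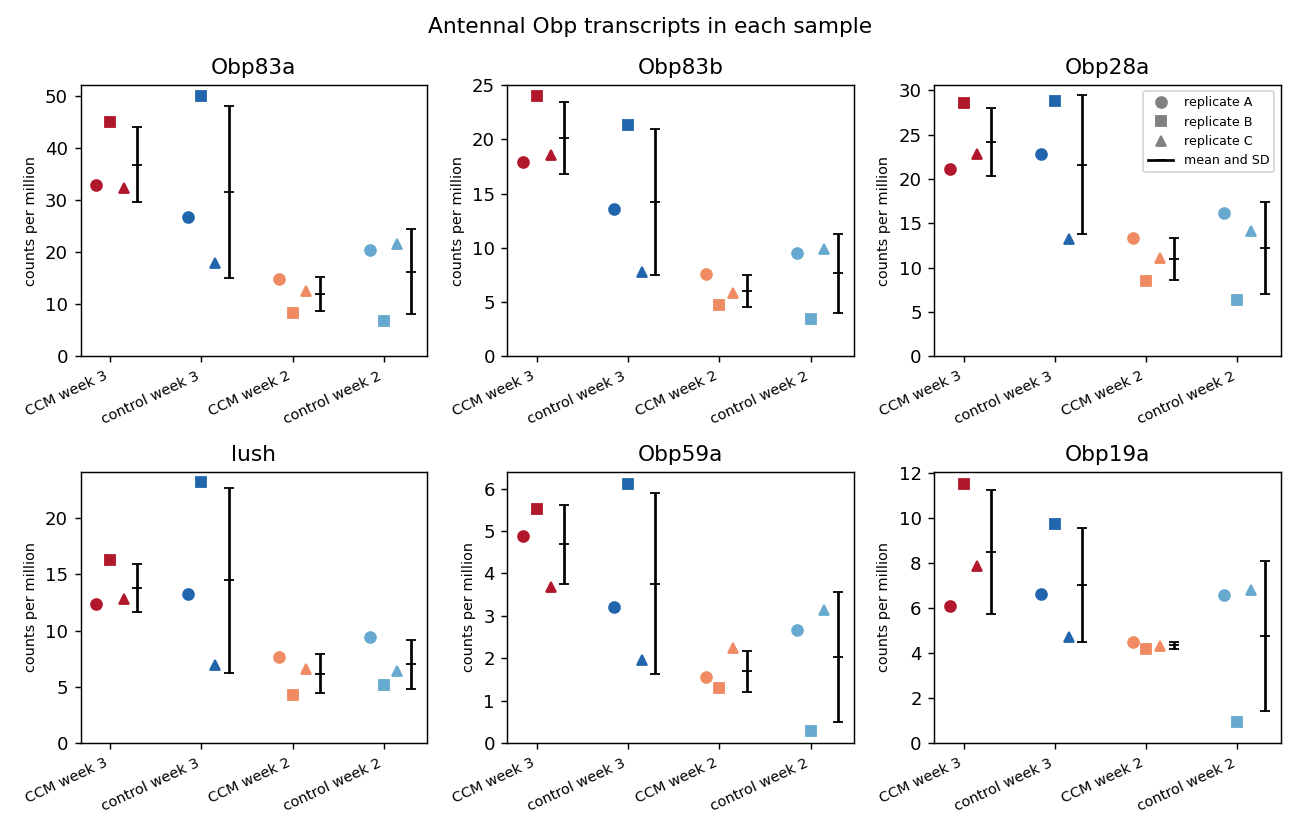
Level in CPM (vertical axis from 0) of 6 antennal members in each sample, by group, with circles, squares and triangles for samples A, B and C and the mean with SD in black (n = 3). In CCM flies every week 3 sample lies above every week 2 sample, whereas control week 2 B (Obp59a at 0.271 CPM) lies below its group and control week 3 B (Obp83a at 49.9 CPM) above its own.

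Among taste members, Obp49a, which carries bitter compounds and suppresses sweet taste, had 20.5, 32.2 and 15.7 CPM in CCM week 3, against 13.4, 8.93 and 6.12 CPM in CCM week 2 (1.22 ± 0.44, adjusted p = 0.0225). Obp19b, a gene of taste sensilla, had 17.4, 30.3 and 15.5 CPM in CCM week 3, against 11.4, 8.77 and 7.26 CPM in CCM week 2 (1.16 ± 0.35, adjusted p = 0.0145). The feature of Obp57d and Cpr57A had 34.4, 36.3 and 37.0 CPM in CCM week 3, against 22.7, 20.9 and 18.7 CPM in CCM week 2 (0.74 ± 0.09, adjusted p = 0.00156). All 3 were separate between the weeks, and in the merged feature the share of Obp57d, as against the cuticle gene Cpr57A, is not known.

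In the X chromosome run, Obp19c, whose role is not given here, rose along with its neighbours Obp19a, Obp19b and Obp19d. It had 5.12, 4.34 and 6.19 CPM in CCM week 3, against 2.40, 1.53 and 2.93 CPM in CCM week 2 (1.14 ± 0.31, adjusted p = 0.013). Obp18a, also on the X but outside the run, had 39.8, 37.9 and 42.5 CPM in CCM week 3, against 31.1, 24.7 and 26.6 CPM in CCM week 2 (0.49 ± 0.11, adjusted p = 0.00687). On 2R, the neighbours Obp57a, Obp57b and Obp57c were higher by log2 fold changes of 0.51, 0.44 and 0.41. Obp57c, the most abundant of them, had 135, 124 and 139 CPM in CCM week 3, against 110.2, 79.8 and 99.2 CPM in CCM week 2. Obp57a had 38.5, 54.1 and 45.4 CPM in CCM week 3, against 36.8, 25.5 and 31.5 CPM in CCM week 2. Week 3 lay above week 2 in all 3, but with the length correction none of them was called.

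Obp56h was higher by 1.42 ± 0.28 SE on the log2 scale at CCM week 3 (adjusted p = 0.0159), from the values given above. Its CCM groups did not overlap. Obp56a had 10.9, 13.6 and 12.7 CPM in CCM week 3, against 10.4, 4.56 and 7.70 CPM in CCM week 2 (0.67 ± 0.36, adjusted p = 0.0815), and lost its call when any of 4 of the 6 libraries was left out, A of either week being the exceptions (adjusted p = 0.130 to 0.161).

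Among the seminal fluid members only Obp51a was called. It had 123, 94.5 and 115 CPM in CCM week 3, against 87.5, 67.5 and 68.8 CPM in CCM week 2 (0.52 ± 0.17, adjusted p = 0.0165). The accessory gland markers summed to 638 to 895 CPM in CCM week 3, against 606 to 647 CPM in CCM week 2, and 6 of the 15 were higher and 1 lower; their part in the Obp51a result was not tested. Obp56g had 304, 304 and 159 CPM in CCM week 3, against 203, 154 and 127 CPM in CCM week 2, overlapping by sample C (0.62 ± 0.37, adjusted p = 0.102). Ebp and EbpII summed to 1002, 875 and 479 CPM in CCM week 3, against 1009, 637 and 556 CPM in CCM week 2. Obp22a and Obp8a, both transferred in seminal fluid, had log2 fold changes of 0.31 and 0.11 (adjusted p = 0.194 and 0.695).

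Outside sensilla, the one lower member was Obp99b, which is enriched in males in fat body of the head. It had 14.4, 9.15 and 10.7 CPM in CCM week 3, against 13.7, 31.1 and 19.5 CPM in CCM week 2, with sample A overlapping (log2 fold change -0.97 ± 0.39 SE, adjusted p = 0.0375). Without CCM week 2 B it was -0.58 (adjusted p = 0.113), and without CCM week 3 B it was -0.78 (adjusted p = 0.110). Obp44a had 240.5, 240.2 and 207 CPM in CCM week 3, against 249, 221 and 269 CPM in CCM week 2 (-0.16 ± 0.11, adjusted p = 0.289, called as lower with the length correction), and Obp99c differed by 0.23 ± 0.21 (adjusted p = 0.267).

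In control flies, fewer members passed. At week 3, 6 of 35 tested members were higher and 0 lower (edgeR's quasi-likelihood test, Benjamini-Hochberg adjusted), where 14.0% of 12200 features were higher and 17.3% lower. Obp56h was too low to be tested in this fit. In the fit of all 12 samples it was higher by 1.99 on the log2 scale (adjusted p = 0.00773), and that fit called 13 members higher, against 20.1% of all features higher and 21.1% lower. In the 6-sample fit the share of higher members was thus near that of all features, and the share of lower members lay below it. In the fit of all 12 samples the share of higher members lay above that of all features. At an unadjusted p under 0.05 there were 10 members, all of them higher, and DESeq2 called 9 higher and 0 lower, against 14.8% and 19.0% of all features. The 6 were Obp19c (1.0 ± 0.22 SE, adjusted p = 0.0375), the feature of Obp57d and Cpr57A (0.64 ± 0.19, adjusted p = 0.0485), Obp57b (0.66 ± 0.23, adjusted p = 0.0599), Obp51a (0.69 ± 0.31, adjusted p = 0.0767), Obp49a (1.03 ± 0.50, adjusted p = 0.0809) and Obp69a (1.22 ± 0.63, adjusted p = 0.0978). All 6 were also among the 21 higher in CCM flies, which are different samples. As 21 of 36 tested members were called there, part of this overlap would be found for any 6 members. The overlap over all features is not given here. With the length correction 3 members were higher and 1 lower, against 13.2% and 13.9% of all features, and Obp49a, Obp51a and Obp69a lost their calls.

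Obp19c had 5.64, 4.09 and 5.70 CPM in control week 3, against 2.70, 2.93 and 2.06 CPM in control week 2, without overlap. Obp57b had 30.3, 27.6 and 25.4 CPM in control week 3, against 18.1, 21.8 and 12.9 CPM in control week 2, also without overlap. Obp49a had 25.6, 26.1 and 9.50 CPM in control week 3, against 11.9, 8.74 and 9.32 CPM in control week 2, and control week 3 C lay within the week 2 range. For Obp51a, control week 3 had 98.0, 78.0 and 126 CPM, against 66.5, 75.8 and 44.4 CPM in control week 2, with no overlap. The accessory gland markers summed to 484 to 835 CPM in control week 3, against 301 to 599.7 CPM in control week 2, and 5 of the 15 were higher; their part in the Obp51a value was not tested.

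The control calls depended on single libraries. Without control week 3 A, 0 members were higher, without control week 2 A there was 1, without control week 3 B or C there were 3, and without control week 2 B there were 7. Without control week 2 C, 3 members, Obp44a, Obp99a and Obp99b, were lower. The share of all features called in each of these fits is not given here, so the member counts cannot be set against it.

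Every antennal member had a positive log2 fold change in control flies (median 0.88), but the spread was wide and the values rested in part on control week 2 B. Without that library the median was 0.48, and the log2 fold change was 0.54 in Obp83a, 0.50 in Obp83b, 0.33 in Obp59a and 0.02 in Obp19a (0.55 with it). Obp83a had 26.8, 49.9 and 18.0 CPM in control week 3, against 20.3, 6.84 and 21.6 CPM in control week 2 (0.95 ± 0.69, adjusted p = 0.177). Obp83b had 13.6, 21.3 and 7.79 CPM in control week 3, against 9.55, 3.47 and 9.90 CPM in control week 2 (0.89 ± 0.65, adjusted p = 0.187). Obp59a had 3.21, 6.11 and 1.96 CPM in control week 3, against 2.66, 0.271 and 3.14 CPM in control week 2 (0.87 ± 1.19, adjusted p = 0.369). In all 3, week 3 B was high and week 2 B low, on 115 and 5 counts for Obp59a, and week 3 C lay within the range of week 2.

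The same held for lush, with 13.3, 23.2 and 6.93 CPM in control week 3, against 9.42, 5.16 and 6.44 CPM in control week 2 (1.04 ± 0.56, adjusted p = 0.115). Obp28a had 22.9, 28.8 and 13.2 CPM in control week 3, against 16.2, 6.30 and 14.2 CPM in control week 2 (0.82 ± 0.54, adjusted p = 0.156). Obp69a, the antennal member that was called, had 4.65, 7.70 and 3.07 CPM in control week 3, against 2.66, 0.977 and 2.93 CPM in control week 2. Its groups were separate by a small margin, and its adjusted p was 0.105 to 0.242 without any 1 of the 6 libraries.

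**Figure D3:**
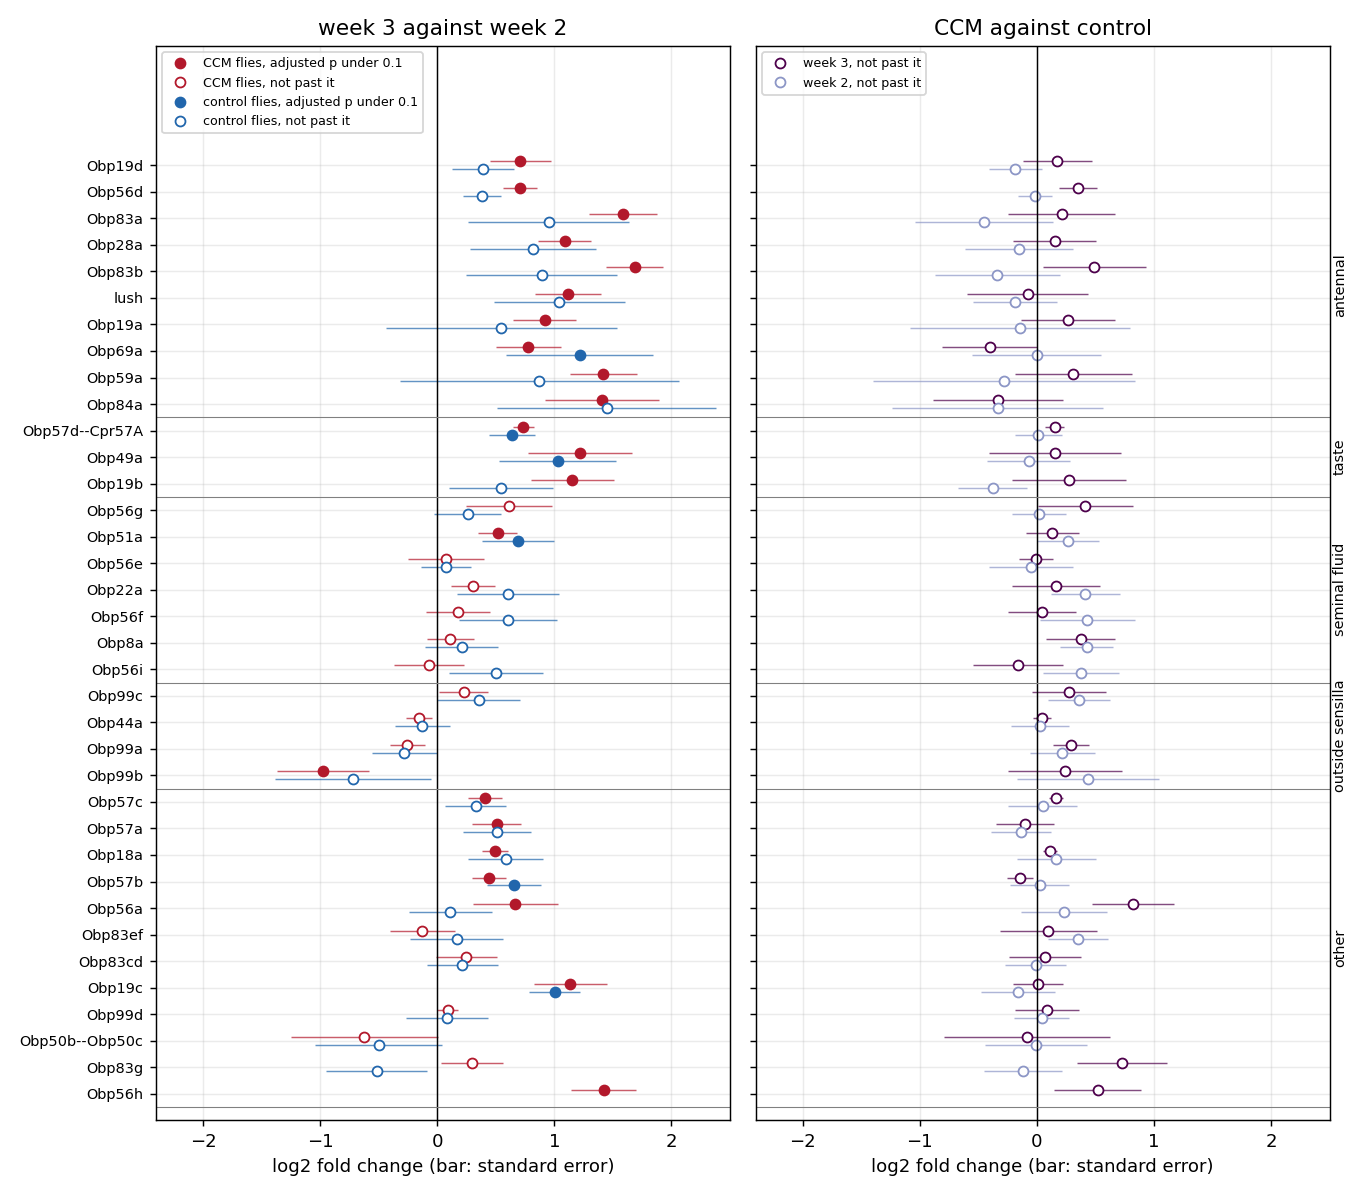
Log2 fold changes of the members (horizontal axis, bars are standard errors) for week 3 against week 2 in CCM and control flies (left) and for CCM against control at week 3 and week 2 (right), with filled points at an adjusted p under 0.1. Antennal and taste members lie right of 0 in the left panel under both schedules, filled for all 13 in CCM flies, and no point is filled in the right panel.

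Side by side, 28 of the 35 members tested under both schedules had a positive log2 fold change in both, and in 20 the one in CCM flies was the larger. The same counts over all features are not given here, so whether the members stand out cannot be told. The member counts do not show a difference between the schedules: the interaction, which is that test, passed for no member. Its largest antennal value was in Obp83b, at 0.85 ± 0.69 SE (adjusted p = 0.913).

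**Figure D4:**
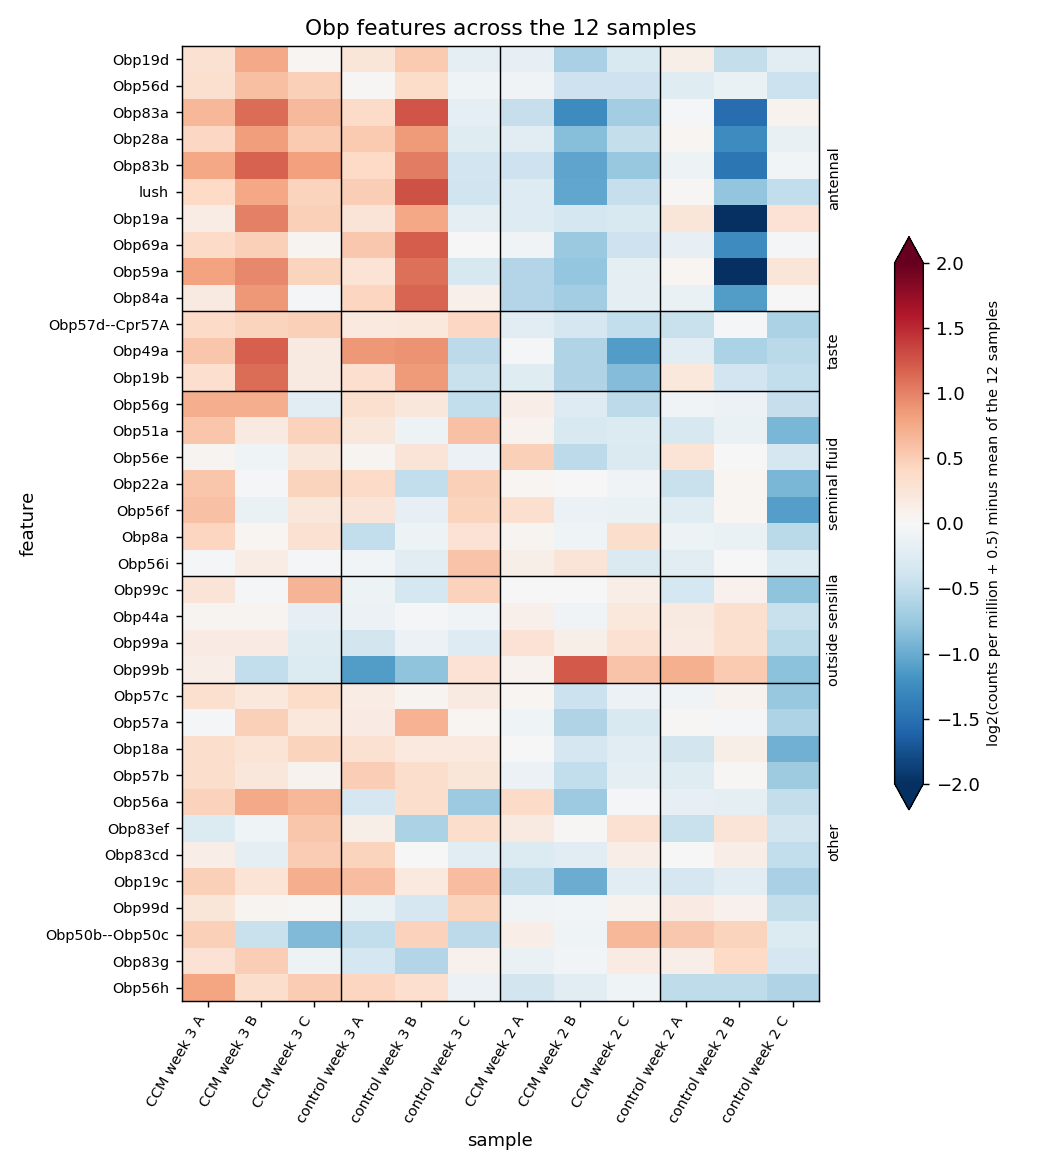
Level of the 36 tested members (rows, by group) in the 12 samples (columns), as log2(CPM + 0.5) minus the mean of the member over the 12 samples, with red above and blue below that mean. Of the 10 antennal rows 7 are lowest in control week 2 B, and each is highest in CCM week 3 B or control week 3 B. Of the 36 rows 16 are lowest in control week 2 C, and the share of all features lowest there is not given.

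The heat map shows that antennal members varied together from sample to sample, also within groups. Their levels were therefore set beside Orco, the co-receptor that most odorant receptors need and a marker of olfactory neurons, which are not the cells that make Obps. Orco had 5.17, 10.1 and 5.19 CPM in CCM week 3, 5.09, 11.3 and 3.43 CPM in control week 3, 2.73, 1.57 and 2.27 CPM in CCM week 2, and 3.57, 0.597 and 5.32 CPM in control week 2. Like all 10 antennal members, it was highest in a B sample of week 3. It was lowest in control week 2 B, as were 7 of the 10. Obp19d and lush were lowest in CCM week 2 B, and Obp56d in control week 2 C. This comparison was chosen after the antennal values had been seen, and not every gene of the olfactory neuron list shared the pattern. Snmp1, a membrane protein of pheromone-sensing neurons and the most abundant gene of that list, had 14.0, 15.6 and 17.3 CPM in CCM week 3, against 14.8, 13.7 and 16.4 CPM in CCM week 2. In control flies Snmp1 had 14.8, 18.5 and 14.2 CPM at week 3, against 13.7, 14.4 and 13.4 CPM at week 2, so that control week 2 B was the highest of its group. The receptor Or43b had 1.23, 0.654 and 0.949 CPM in CCM week 3, against 1.41, 1.65 and 1.22 CPM in CCM week 2, and Ir25a, a co-receptor of ionotropic receptors, had a log2 fold change of -0.02 between the weeks in control flies.

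Across the 12 samples, all 10 antennal members correlated with Orco by Pearson's r at an adjusted p under 0.1 (100000 permutations, 36 members compared), and all but Obp56d (adjusted p = 0.152) by Spearman's rho. Features other than these 36 were not compared, so the share of all features that correlates with Orco is not known. Pearson's r was 0.62 to 0.96, with a median of 0.95. For Obp83a, r was 0.96 and Spearman's rho 0.95 (permutation p = 1e-05 for each, the smallest the permutations can give, adjusted p = 6e-05 for r and 0.00012 for rho). Without control week 2 B and CCM week 2 B, the samples farthest from the median of Orco, r of Obp83a was 0.96 and those of the antennal members 0.72 to 0.96. Within week 3 they were 0.72 to 0.95 (0.95 for Obp83a, exact permutation p = 0.00278, n = 6). Within week 2 that of Obp83a was 0.95 (exact permutation p = 0.00139, n = 6), but that of Obp56d was -0.37 (exact permutation p = 0.496, n = 6).

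Of the 3 taste members, Obp49a (r = 0.74, rho = 0.78, permutation p = 0.00455 and 0.00458, adjusted p = 0.0164 and 0.0183) and Obp19b (r = 0.73) passed. Within week 3 their r was 0.81 and 0.94 (exact permutation p = 0.0583 and 0.0153, n = 6), and within week 2 it was 0.27 and 0.20. The third, the feature of Obp57d and Cpr57A, did not pass (r = 0.40, adjusted p = 0.320 by permutation). Its r was -0.85 within week 2 (exact permutation p = 0.0319, n = 6) and -0.26 within week 3. None of the 7 seminal fluid members (r from -0.17 to 0.46) and none of the 12 other members (-0.47 to 0.56) had an adjusted p under 0.1 over the 12 samples. Among the other members, Obp57a had r = 0.91 within week 3 (exact permutation p = 0.0153, n = 6) and -0.29 within week 2. Within week 3, r of the seminal fluid members was -0.89 to 0.57, with -0.87 for Obp51a (exact permutation p = 0.0236, n = 6). Of the 4 members outside sensilla, Obp99b was inversely related (r = -0.70, rho = -0.74, adjusted p = 0.0291 and 0.0271, by permutation), with -0.55 within week 2 and -0.54 within week 3 (exact permutation p = 0.256 and 0.268, n = 6 each). All points share the same libraries and normalization. The permutations treat the samples as exchangeable, although both Orco and the antennal members differed between the weeks and samples of the same letter deviated together at week 3, so their p-values do not allow for either.

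**Figure D5:**
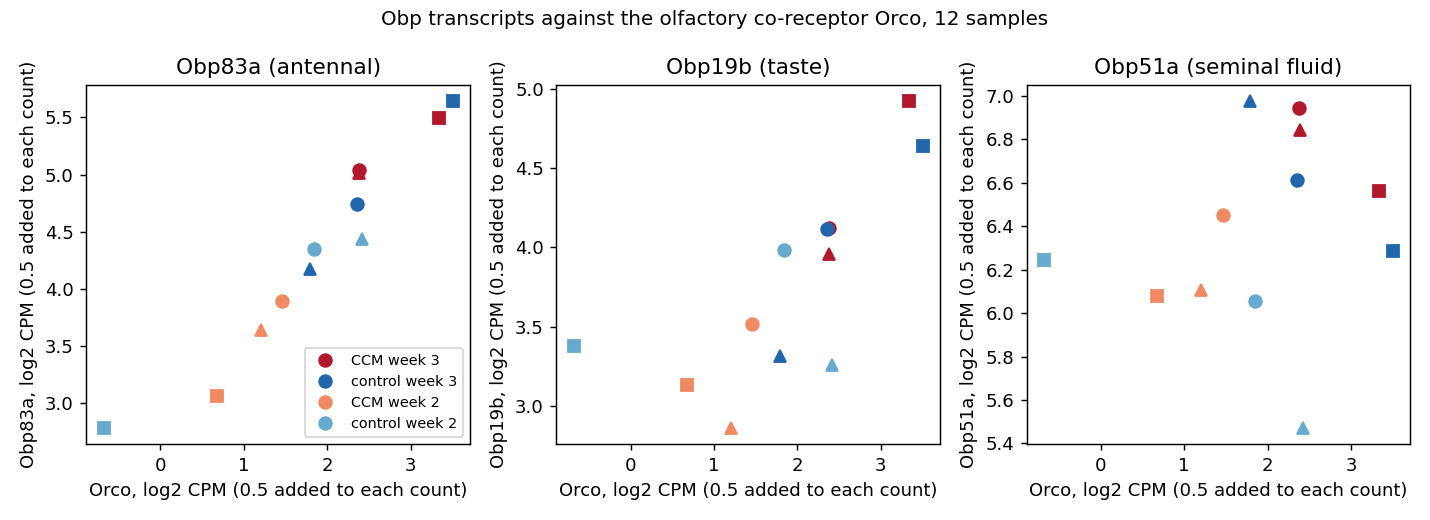
Level of Obp83a, Obp19b and Obp51a against Orco in the 12 samples, both axes log2 CPM after 0.5 was added to each count, with colours for the groups and circles, squares and triangles for samples A, B and C. Obp83a follows Orco (r = 0.96), Obp19b less closely (r = 0.73) and Obp51a had r = 0.20 over all samples.

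Other chemosensory genes were counted from the same fits. Os-C, a10 and a5 encode secreted proteins of the antenna but are not Obps by name, and 3 of 3 were higher at week 3 in CCM flies (median log2 fold change 1.43), against 0 of 3 called in control flies (median 0.95). Of 20 CheA and CheB proteins, secreted proteins linked to contact chemosensation, 9 of the 10 that could be tested were higher in CCM flies, and 2 of 11 in control flies. Of all features, 26.4% were higher in CCM flies and 14.0% in control flies. These counts do not show a difference between the schedules, as the interaction passed for no feature in edgeR's fit. The receptors were mostly too low: of 56 odorant receptor features 7 were tested in CCM flies, with 2 higher, Orco among them (1.60 ± 0.39 SE, adjusted p = 0.00832), and 1 lower. Of 7 ionotropic receptors tested there, 1 was higher, Ir76b (1.77 ± 0.41, adjusted p = 0.00877), and 1 lower. In control flies Orco had a log2 fold change of 1.05 ± 1.08 (adjusted p = 0.280).

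The summed markers of yolk, photoreceptors and testis had lower means at week 3 than at week 2 under both schedules. In whole flies this cannot be assigned to RNA per cell or to the number of cells. The yolk genes summed to 1591 to 4097 CPM in CCM week 3, against 6223 to 9154 CPM in CCM week 2, and to 1948 to 3068 CPM in control week 3, against 5217 to 6911 CPM in control week 2. The photoreceptor markers summed to 1143 to 2748 CPM in CCM week 3, against 2201 to 3986 CPM in CCM week 2, and to 1555 to 1995 CPM in control week 3, against 3044 to 3416 CPM in control week 2. The testis markers summed to 130.1 to 272 CPM in CCM week 3, against 279 to 415 CPM in CCM week 2, and to 149 to 266 CPM in control week 3, against 232 to 308 CPM in control week 2. All 3 yolk genes were lower under both schedules, as were 3 of 5 testis genes in CCM flies and 2 of 5 in control flies. The part of these markers in the Obp values was not tested.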

How the data were processed

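Whole-fly RNA-seq counts of 12 samples were used. The deposited counts are whole-number reads per feature, not normalized, made by the authors with RNA STAR in Galaxy and MMquant on the fly genome dm6 with an Ensembl annotation of release 87. MMquant joins the genes that a read falls on into merged features, so that shared reads do not inflate single genes. Symbols, positions and exonic lengths came from the Ensembl annotation of release 115, in which 13025 of the 13240 single-gene features had a position. No file held columns of other samples or of the authors' own comparisons.

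Each pair of conditions was fitted alone on its 6 samples with edgeR 4.0.16 in R 4.3.3 (filterByExpr, TMM, glmQLFit and glmQLFTest), with Benjamini-Hochberg adjustment over all features tested and a threshold of 0.1. The effect over both weeks and the interaction used all 12 samples. Levels are CPM with TMM factors of all 12 samples. Standard errors of log2 fold changes, and correlations, come from log2 CPM of the samples after 0.5 was added to each count. Alternatives were DESeq2 1.42.0, RLE size factors, no filter, the replicate letter as a block, offsets for gene length (a lowess trend of span 0.3 in each sample), single-gene features, 1 fit of all samples, a threshold of 0.05, and each replicate left out. Scripts were tested on simulated data. Python 3.11.15 with scipy 1.17.1 and matplotlib 3.10.9 was used for the permutations and plots.

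Samples of the same letter deviated together at week 3, where their deviations from the group means correlated at 0.18, 0.49 and 0.48 across features, each over 0.1. The blocked values are therefore given beside those results. The letters did not pair samples in the other comparisons. No replicates of a group agreed within sampling noise (chi-square per degree of freedom 18.7 to 101).

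Members given with sample values were those called in a comparison (at most 12, smallest p first), the 8 highest per kb of exon, and those with a textbook role. Obp19a and Obp56a fall outside this rule and were chosen after their values were seen. The members and lists were chosen with earlier results of these data known. Depth was 17842804 to 23687266 counts per sample, and floors of 3 counts cover counting error only.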

Additional observations from a re-analysis of the deposited data

How the results depend on the processing

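At week 2, over both weeks and for the interaction, every setting tried gave 0 called members. At week 3, the replicate block gave 4 members higher in CCM and every other setting run gave 0. For week 3 against week 2 in control flies, 6 members were higher, but 3 with length offsets, with or without the block, 13 with all 12 samples in 1 fit, 2 at a threshold of 0.05, and 0 to 7 when 1 replicate was left out. The count of lower members was 0, but 1 with length offsets, with or without the block, and 0 to 3 with 1 replicate left out. In CCM flies 21 were higher and 1 lower. Length offsets with the replicate block gave 11 higher and 2 lower, length offsets alone 3 lower, all 12 samples in 1 fit 0 lower, and leaving out 1 replicate 17 to 22 higher and 0 to 2 lower. The letters do not pair the samples between weeks (deviations correlated at -0.13 to 0.10 in control flies and at -0.33 to -0.10 in CCM flies), and the block alone gave 5 and 20 higher. Settings that left out a replicate rested on 5 samples in a comparison of 6. The shares of all features called in those settings are not given here. Detection by a mean of 1 CPM gave 33 members in place of 52. The 8 highest members were the same 8 with or without division by length. The correlation of Obp56d with Orco was -0.37 within week 2. Members near or under 1 CPM, such as Obp84a and Obp56h, are limited by depth. The cause of these changes was not tested.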
